A study of Mus musculus with 2 samples.

Results

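The Frizzled genes *Fzd1* to *Fzd10* encode the receptors that bind WNT ligands at the cell surface. The array rows whose gene name was one of these 10 symbols were taken, with all their probes and without control spots. This gave 13 probes for 10 genes, out of 39429 probes for 29924 gene names. Each probe was printed as 4 spots. *Fzd2*, *Fzd5* and *Fzd7* had 2 probes each and the other 7 genes had 1.

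The RNA came from wildtype NMRI mouse ureters, dissected at P0 and cultured as explants on transwell membranes for 18 h. The medium, the same for both groups, held 5 µM IWP-2, or DMSO at 1:1000 in the control. IWP-2 is a small molecule that inhibits PORCN, the acyltransferase that puts a lipid on WNT ligands. Each array set 1 control pool against 1 IWP-2 pool of the same sex, and the study's methods describe a pool as 5 or 6 ureters. In replicate 1 both pools were female, with the control in green (AlexaFluor555) and IWP-2 in red (AlexaFluor647). In replicate 2 both pools were male and the dyes were swapped, so sex and dye orientation cannot be told apart. A bulk signal is given for each pool, in which fewer cells of a type and less RNA per cell cannot be told apart.

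Frizzled receptors are multi-pass membrane proteins with a cysteine-rich domain outside the cell that binds the lipid of a WNT ligand. With the coreceptors LRP5 and LRP6 they recruit Dishevelled proteins, which stops the destruction of β-catenin and lets it act with TCF/LEF factors on target genes. With other partners they act in planar cell polarity, and the ligases ZNRF3 and RNF43 remove them from the membrane unless R-spondins and LGR receptors hold these ligases off. By sequence the mammalian receptors fall into the subfamilies *Fzd1*, *Fzd2* and *Fzd7*, then *Fzd3* and *Fzd6*, then *Fzd5* and *Fzd8*, and last *Fzd4*, *Fzd9* and *Fzd10*.

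In the IWP-2 pools, *Fzd1* and *Fzd10* had lower signals than the controls on both arrays, 1.53-fold and 1.35-fold on average, and *Fzd4* had a higher signal on both, 1.18-fold on average. None of these differences passed limma's test at an adjusted p of 0.05 over all probes tested. The fit called 0 of the 12 Frizzled probes tested, against 0.574% of all 23706 tested probes (136 probes, of which 104 were lower and 32 higher with IWP-2). At an unadjusted p under 0.05 there were 4 Frizzled probes, where 13.6% of all tested probes lay. The mean log2 ratios of 10 of the 12 tested probes, all but those of *Fzd1* and *Fzd10*, lay within 0.25 of 0.

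The readout of the treatment is *Axin2*, a feedback inhibitor and direct target of WNT signalling. *Axin2* was already listed by the study as reduced with IWP-2 on these same arrays. Its signal was 181 in the control and 42.1 in the IWP-2 pool of replicate 1, and 154 and 46.7 in replicate 2. It fell 3.77-fold, with a mean log2 ratio of −1.92 ± 0.11 (limma's moderated SE, n = 2 arrays) and an adjusted p of 0.00660 in limma. Such an SE draws on the variance of all tested probes and is not the spread of the 2 arrays alone. Of the probes on each array, 68.8% to 70.3% were well above background in a condition, 3.22% to 3.32% of the spots had an outlier flag, and no spot was saturated (0 on both arrays). The SD between the log2 ratios of all tested probes was 0.24 in replicate 1 and 0.18 in replicate 2.

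Promoter sequences of RefSeq (GRCm38.p6) were at hand for 6 of the 10 genes, *Fzd1*, *Fzd4*, *Fzd5*, *Fzd7*, *Fzd9* and *Fzd10*. The 250 bases before the start of *Fzd1*, *Fzd10* and *Fzd4* are shown, because these were the members furthest from 0 in the same direction on both arrays. They are written 5′ to 3′ on the strand of the gene, in lower case, and capitals would mark the TCF/LEF motifs CTTTGAT or CTTTGAA on either strand.
Fzd1, chr5:4758217-4758466, minus strand: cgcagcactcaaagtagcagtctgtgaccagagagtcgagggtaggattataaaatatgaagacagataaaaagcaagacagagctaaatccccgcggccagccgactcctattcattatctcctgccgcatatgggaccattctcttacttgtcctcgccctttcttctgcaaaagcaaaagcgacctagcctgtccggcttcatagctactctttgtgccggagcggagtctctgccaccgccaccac
Fzd10, chr5:128600856-128601105, plus strand: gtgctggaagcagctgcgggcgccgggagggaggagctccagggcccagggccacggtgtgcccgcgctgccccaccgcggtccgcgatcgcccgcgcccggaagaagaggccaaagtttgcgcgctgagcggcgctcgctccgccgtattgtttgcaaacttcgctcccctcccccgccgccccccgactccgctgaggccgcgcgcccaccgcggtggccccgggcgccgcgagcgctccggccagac
Fzd4, chr7:89404116-89404365, plus strand: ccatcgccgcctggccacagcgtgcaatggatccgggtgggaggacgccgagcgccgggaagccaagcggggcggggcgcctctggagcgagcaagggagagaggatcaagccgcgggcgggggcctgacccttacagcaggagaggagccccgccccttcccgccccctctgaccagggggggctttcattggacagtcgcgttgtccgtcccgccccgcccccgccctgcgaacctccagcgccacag
Neither motif was found in these 3 windows or in those of *Fzd5*, *Fzd7* and *Fzd9* (0 of 6). Of the 32851 promoter windows of the same length, 3.21% held CTTTGAT, 4.46% held CTTTGAA and 7.48% held either. The windows differed in base composition. G and C made up 51.2% of the *Fzd1* window with 12 CG steps, against 76.4% with 37 in *Fzd10* and 72.8% with 25 in *Fzd4*. The windows of *Fzd5* and *Fzd9* had 76.4% and that of *Fzd7* 65.2%.

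*Fzd1* encodes a receptor linked with β-catenin signalling, which shares roles with *Fzd2* in palate and heart development. Its probe (mm9 chr5:4754003-4754062, minus strand) starts at base 4154 of the transcript. The signal was 10357 in the control and 6255 in the IWP-2 pool of replicate 1, and 8158 and 5798 in replicate 2. Both IWP-2 pools lay below both control pools. The log2 ratio of IWP-2 over control was −0.73 in replicate 1, with the 4 spots between −0.75 and −0.70. In replicate 2 it was −0.49, with the 4 spots between −0.52 and −0.45. The mean was −0.61 ± 0.088 (limma's moderated SE, n = 2 arrays), with a moderated 95% interval of −0.83 to −0.39. The adjusted p was 0.0700 in limma (unadjusted p = 0.000601). Among all tested probes, 0.62% had a lower mean ratio.

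*Fzd10* encodes a receptor of the subfamily of *Fzd4* and *Fzd9*. Its probe (mm9 chr5:129109798-129109857, plus strand) starts at base 2817 of the transcript. The signal was 438 in the control and 315 in the IWP-2 pool of replicate 1, and 424 and 323 in replicate 2. Both IWP-2 pools again lay below both control pools, and the arrays gave log2 ratios of −0.48 and −0.39. The mean was −0.43 ± 0.074 (limma's moderated SE, n = 2 arrays), with a moderated 95% interval of −0.62 to −0.25. The adjusted p was 0.0967 in limma (unadjusted p = 0.00147). Of all tested probes, 1.37% had a lower mean ratio.

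Whether *Fzd1* and *Fzd10* were called depended on the setting. *Fzd1* was called in 3 of the other 11 settings with a test, and *Fzd10* in 2. With probes of a mean signal above 100 in 1 condition, limma gave *Fzd1* an adjusted p of 0.0347 and *Fzd10* one of 0.0541, and called 1.01% of 18397 probes. With normexp background correction, the values were 0.0116 and 0.0342, and 1.93% of 23706 probes were called. With 1 probe a gene and a mean signal above 100, they were 0.0252 and 0.0415, and 1.3% of 14334 genes were called. Over all 11 settings, the adjusted p ran from 0.0116 to 0.760 for *Fzd1* and from 0.0342 to 0.622 for *Fzd10*. Both mean ratios stayed below 0. Only leaving out loess, median centring, normexp and keeping outlier spots gave other ratios. The rest changed the probes tested, the floor or the variance and returned the reported ratios, so their sign is no further evidence there. The fit as it was first laid down, which kept probes at the signal floor, gave *Fzd1* 0.438 and *Fzd10* 0.437 and called 0 probes of the whole array (3032 at an unadjusted p under 0.05).

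**Figure D1:**
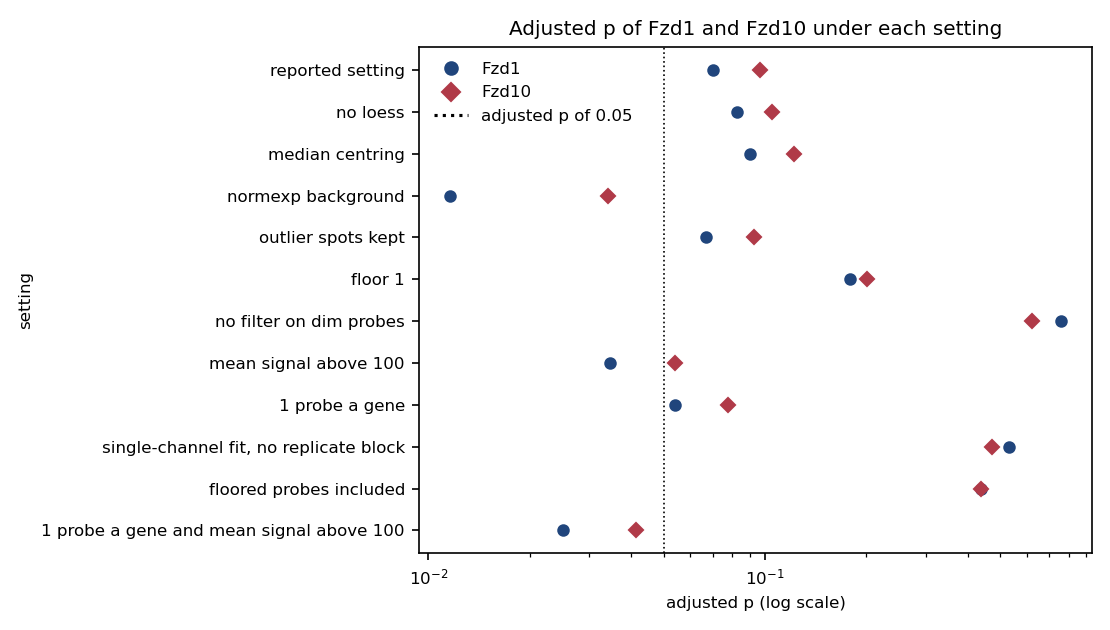
Adjusted p of limma (x axis, log scale) for *Fzd1* (circles) and *Fzd10* (diamonds) under the reported setting and the 11 others (y axis), with a dotted line at 0.05. *Fzd1* lies left of the line in 3 settings and *Fzd10* in 2, and in the reported setting they stand at 0.0700 and 0.0967.

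The study's own selection asked for a control signal above 100 and a change of at least 1.5-fold, and the form used here asked for both on each array. No Frizzled gene passed it (0 of the 7 whose control signal was above 100), and 0.363% of 14051 genes passed it as lower. On the array of replicate 1 alone *Fzd1* passed, where 1.13% of the genes did so as lower. On that of replicate 2 alone it did not pass.

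**Figure D2:**
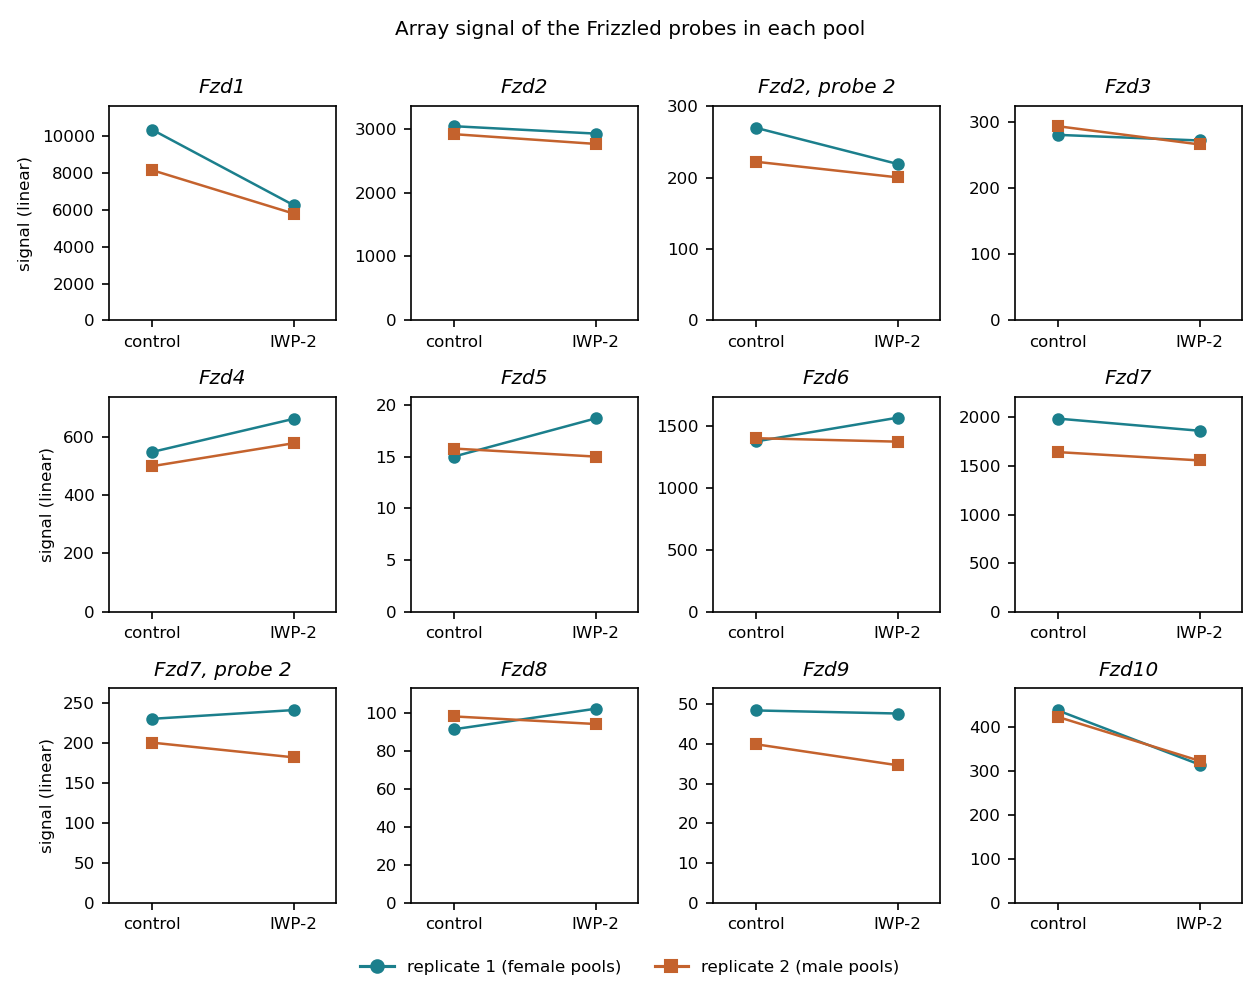
Normalized signal on a linear scale (y axis, from 0, with a scale of its own for each probe) in the control and the IWP-2 pool (x axis) for the 12 tested probes, with circles for replicate 1 and squares for replicate 2 and a line joining the pools of 1 array. *Fzd1* and *Fzd10* slope down and *Fzd4* slopes up on both arrays, whereas *Fzd6* goes up on 1 array and slightly down on the other.

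Some cell type markers lay on the same side of 0 as *Fzd1* and *Fzd10*, and their part in these values was not tested. Of the 4 lamina propria markers, the fibrocyte layer under the urothelium, *Aldh1a2*, *Car3* and *Thy1* were below 0 on both arrays and *Bmp4* was not. The study had already listed *Aldh1a2*, *Car3* and *Thy1* as reduced with IWP-2 on these same arrays, and *Bmp4* not. The direction of these markers is therefore not a separate measure of that layer. None of the 4 was called. Their summed signal was 17880 to 22830 in the control pools and 15860 to 16060 in the IWP-2 pools. *Aldh1a2*, the retinoic acid synthesizing enzyme of that layer, had log2 ratios of −0.76 and −0.50 and an adjusted p of 0.0690. In the other direction, 6 of 7 urothelium markers were above 0 on both arrays and none was called, with summed signals of 87170 to 106300 in the control and 113700 to 114600 in the IWP-2 pools. The 5 smooth muscle markers summed to 76630 to 89160 in the control and to 88640 to 89680 in the IWP-2 pools, and 2 were above 0 on both arrays. Of the 4 kidney markers, *Six2*, a gene of nephron progenitors, was the only one tested. It gave 211 and 157 in the controls and 172 and 139.8 with IWP-2, so it lay below 0 on both arrays like *Fzd1* and *Fzd10*, and was not called (adjusted p = 0.272). *Slc34a1* was at the floor of 15 in replicate 1, and gave 23.1 in the control and 29.3 in the IWP-2 pool of replicate 2. *Umod* and *Nphs1* lay at the floor in all 4 pools. The summed signal of the kidney list was 210.4 to 256 in the control and 199 to 217 in the IWP-2 pools. The 3 macrophage markers were above 0 on both arrays (summed signal 3292 to 3525 in the control and 3710 to 3900 in the IWP-2 pools), and 2 of 3 Schwann cell and neuron markers were below 0 on both (4681 to 5507 and 3386 to 5381). In all, 0 of the 30 marker genes were called.

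*Fzd2* and *Fzd7* are the closest relatives of *Fzd1*, with roles in tissue movements of the embryo and, for *Fzd7*, in intestinal stem cells. The *Fzd2* probe nearer the transcript's start (mm9 chr11:102467613-102467672, plus strand) gave signals of 3037 and 2913 in the control pools and 2921 and 2760 in the IWP-2 pools. Its mean log2 ratio was −0.07, with a 95% interval of −0.25 to 0.11 and an adjusted p of 0.843. The probe farther along (chr11:102469045-102469104) gave 269.6 and 222 in the controls and 219 and 200.2 with IWP-2, on 3 spots per array after an outlier spot was left out. It gave a mean of −0.22, with an interval of −0.42 to −0.03 and an adjusted p of 0.30 (unadjusted p = 0.0316). The 2 probes of *Fzd2* thus gave intervals that overlap, and only that of the second leaves out 0.

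For *Fzd7*, the probe at chr1:59543192-59543251 (mm9, plus strand) gave 1988 and 1643 in the control and 1863 and 1557 in the IWP-2 pools. The mean log2 ratio was −0.09, with an interval of −0.27 to 0.09. The other probe (chr1:59541367-59541426) gave 230 and 200.4 in the controls and 241 and 182 with IWP-2. Its ratio was 0.07 on the female array and −0.14 on the male array, and the mean was −0.04 with an interval of −0.25 to 0.17. The arrays therefore disagreed in sign at this probe, and neither probe of *Fzd7* was called (adjusted p of 0.766 and 0.962).

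*Fzd3* and *Fzd6* are known for planar cell polarity, in axon guidance and hair orientation. *Fzd3* (mm9 chr14:65854084-65854142, minus strand) gave 279.9 and 293 in the controls and 271 and 265 with IWP-2, where both IWP-2 pools lay below both controls. The mean log2 ratio was −0.09, with an interval of −0.28 to 0.09 and an adjusted p of 0.750. *Fzd6* (chr15:38869107-38869166, plus strand) gave 1373 and 1399 in the controls and 1564 and 1371 with IWP-2. The log2 ratio was 0.19 on the female array and −0.03 on the male array, with a mean of 0.08, an interval of −0.13 to 0.29 and an adjusted p of 0.843.

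*Fzd4* is the receptor for Norrin, a ligand outside the WNT family, and is known for the growth of retinal vessels. Its probe (mm9 chr7:96557478-96557537, plus strand) gave 547 and 499 in the control pools and 661 and 577 in the IWP-2 pools. Both IWP-2 pools were above both control pools, which no other Frizzled probe tested showed. The log2 ratios were 0.27 and 0.21, with a mean of 0.24 ± 0.073 (limma's moderated SE, n = 2 arrays). The interval was 0.06 to 0.42 and the adjusted p in limma was 0.239 (unadjusted p = 0.0181). Of all tested probes, 6.40% had a higher mean ratio. It was called in 0 of the other 11 settings, with an adjusted p from 0.173 to 0.735. Its mean was above 0 in each, though many of these settings left the ratio as reported.

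*Ndp*, which encodes Norrin, was the only called gene of 5 listed as partners of single Frizzled receptors. This list also holds *Smo*, a hedgehog signalling gene that is not such a partner. The *Ndp* signal was 84.4 and 62.4 in the controls and 35.3 and 29.8 with IWP-2, a 2.24-fold fall with an adjusted p of 0.0123. With a mean signal above 100 as the filter, *Ndp* was not tested. *Tspan12*, a coreceptor of *Fzd4*, had log2 ratios of −0.12 and −0.06 and was not called (adjusted p = 0.756). The endothelial markers, cells in which *Fzd4* is known to act, summed to 10170 to 12230 in the control and to 10690 to 11100 in the IWP-2 pools. Of these 4 markers, 2 were above 0 and 1 below 0 on both arrays, and their part in the *Fzd4* values was not tested.

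*Fzd9*, a gene known from bone and from the Williams syndrome region, was dim (mm9 chr5:135724815-135724874, minus strand). It gave 48.4 and 39.9 in the controls and 47.6 and 34.6 with IWP-2, and all 4 spots were well above background in each pool. The mean log2 ratio was −0.11, with an interval of −0.32 to 0.09 and an adjusted p of 0.703.

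*Fzd5* and *Fzd8* are close relatives with roles in the eye and, for *Fzd5*, in the placenta and in Paneth cells. The *Fzd5* probe at chr1:64781972-64782030 (mm9, minus strand) lay at the floor of 15 in all 4 pools, with signals of 11.6 to 12.7 before the floor was set, and so gave no ratio. The other (chr1:64779479-64779538) gave 12 and 15.8 in the controls and 18.7 and 14.4 with IWP-2 before the floor. With the floor its log2 ratio was 0.32 on the female array and −0.07 on the male array, with an interval of −0.15 to 0.40. All kept spots of both probes were nevertheless marked as well above background in the files. Signals so near the floor bound the level and do not resolve a difference between the groups. *Fzd8* (chr18:9214916-9214975, plus strand) gave 91.2 and 97.9 in the controls and 102 and 94.0 with IWP-2. Its mean was 0.05, with an interval of −0.16 to 0.27 and an adjusted p of 0.935.

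**Figure D3:**
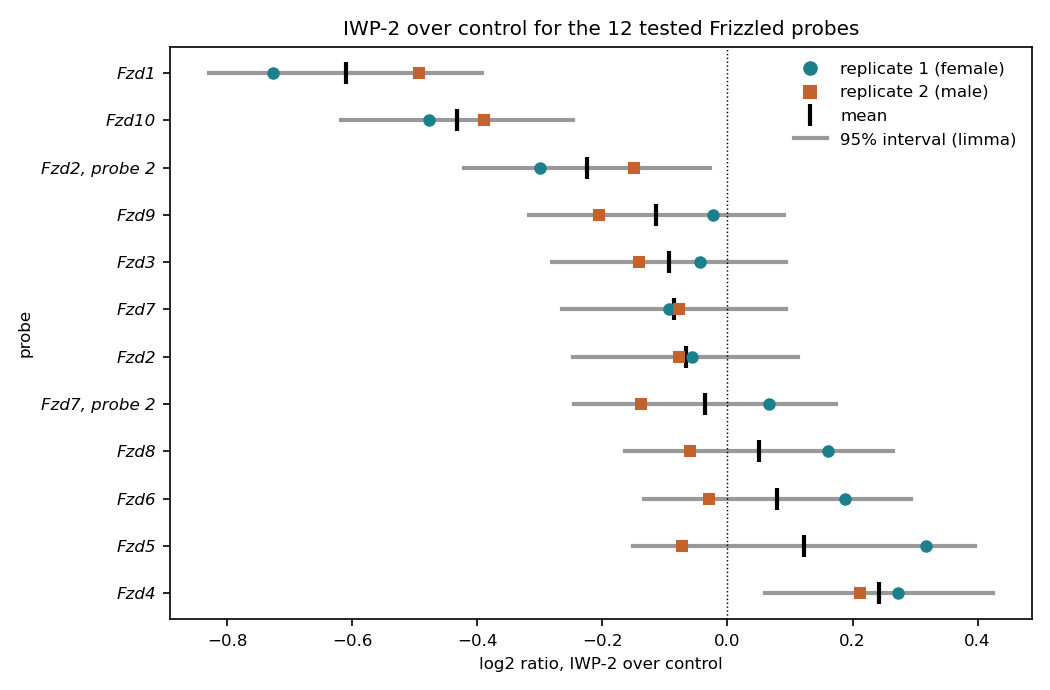
Log2 ratio of IWP-2 over control (x axis) for the 12 tested probes (y axis, sorted by the mean), with circles for replicate 1, squares for replicate 2, a tick for the mean and a bar for limma's 95% interval. The intervals of *Fzd1*, *Fzd10*, *Fzd4* and the second probe of *Fzd2* leave out 0, and 4 probes have 1 array on each side of 0.

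Across the 12 tested probes, 7 were below 0 on both arrays, 1 was above 0 on both and 4 had opposite signs. Of all tested probes, 28.4% were below 0 and 28.3% above 0 on both. The median of the mean log2 ratio was −0.076 over the Frizzled probes and −0.0027 over all tested probes, with a range of −0.61 to 0.24 for the Frizzled probes. Probes of different genes differ in how strongly they bind, so their signals were not ranked against each other.

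The rest of the receptor system was described with 1 probe a gene, against a background of 0.629% of 17798 genes called (89 lower and 23 higher). Of the 62 other pathway genes in 7 lists, the called ones all fell. Among the coreceptors and other WNT receptors, 0 of 6 tested genes were called and the median log2 ratio was −0.09. On both arrays, 4 of them were below 0 and 1 was above 0. *Lrp6*, a coreceptor in β-catenin signalling, had log2 ratios of 0.15 and 0.19 (adjusted p = 0.385). The kinase-like receptors *Ryk* and *Ptk7* had means of −0.05 and −0.13 (adjusted p of 0.915 and 0.685). Furthest from 0 were *Ror1* and *Ror2*, lower on both arrays with means of −0.41 and −0.37 (adjusted p of 0.185 and 0.162 in limma).

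Among the ligases that remove Frizzled proteins and the R-spondins and LGR receptors that hold these off, 2 of 6 tested genes fell. The median was −0.45 over this list, whose members act in opposite ways on removal. *Rnf43*, the ligase that marks Frizzled proteins for removal, gave 1277 and 1108 in the controls and 701 and 661 with IWP-2. It fell 1.75-fold, with an adjusted p of 0.0316 in limma. *Lgr5*, an R-spondin receptor and WNT target, gave 134.8 and 157 in the controls and 15 and 18.6 with IWP-2, where the first value is the floor. Its mean log2 ratio was −3.12, with an adjusted p of 0.000281, and the fall is a lower bound on the array of replicate 1. *Lgr4*, a related receptor, had a mean of −0.02 (adjusted p = 0.988). *Rspo3*, an R-spondin, had ratios of −0.64 and −0.31 and was not called (adjusted p = 0.137). The other ligase, *Znrf3*, was at the floor in 3 of the 4 pools and was not tested. In replicate 2 it gave 18.3 in the control against the floor with IWP-2, a log2 ratio of −0.28.

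The secreted Frizzled-related proteins carry a cysteine-rich domain like that of the receptors and bind WNT ligands outside the cell. Of 4 tested genes, 1 fell, and the median was −0.36. *Sfrp2* gave 9090 and 6131 in the controls and 4450 and 3642 with IWP-2, a 1.85-fold fall with an adjusted p of 0.0376. *Sfrp4* had ratios of −0.50 and −0.48 and missed the threshold (adjusted p = 0.0760), and *Sfrp1* had a mean of −0.01 (adjusted p = 0.994). Among Dishevelled and planar polarity partners, which act below the receptors, 0 of 10 tested genes were called. Their means ran from −0.20 to 0.35 with a median of −0.04, and *Dvl1* had one of −0.03, *Prickle1* of −0.18 and *Vangl1* of 0.06.

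Of the ligands, 10 of 19 gave a ratio and 0 were called, with a median of −0.16. Their means ran from −0.80 to 0.50, with 7 below 0 and 2 above 0 on both arrays. *Wnt5a*, a ligand known for signalling through Frizzled and ROR receptors, had log2 ratios of 0.60 and 0.40 (adjusted p = 0.0923). *Wnt4* and *Wnt5b* had means of −0.26 and −0.29 (adjusted p of 0.207 and 0.179). All 6 readouts of the pathway were below 0 on both arrays, with a median of −1.12, and 5 were called. These were *Axin2*, *Lef1*, *Notum*, *Sp5* and *Tcf7*, with means from −2.16 for *Sp5* to −0.69 for *Notum*. The sixth, the feedback inhibitor *Nkd1*, had a mean of −0.79 and an adjusted p of 0.0537. On these same arrays the study had already listed *Axin2*, *Sp5*, *Tcf7* and *Nkd1* as reduced with IWP-2. It had also listed *Lgr5* and *Ndp* of the other lists. The direction of these genes is therefore not a separate measure of the treatment.

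**Figure D4:**
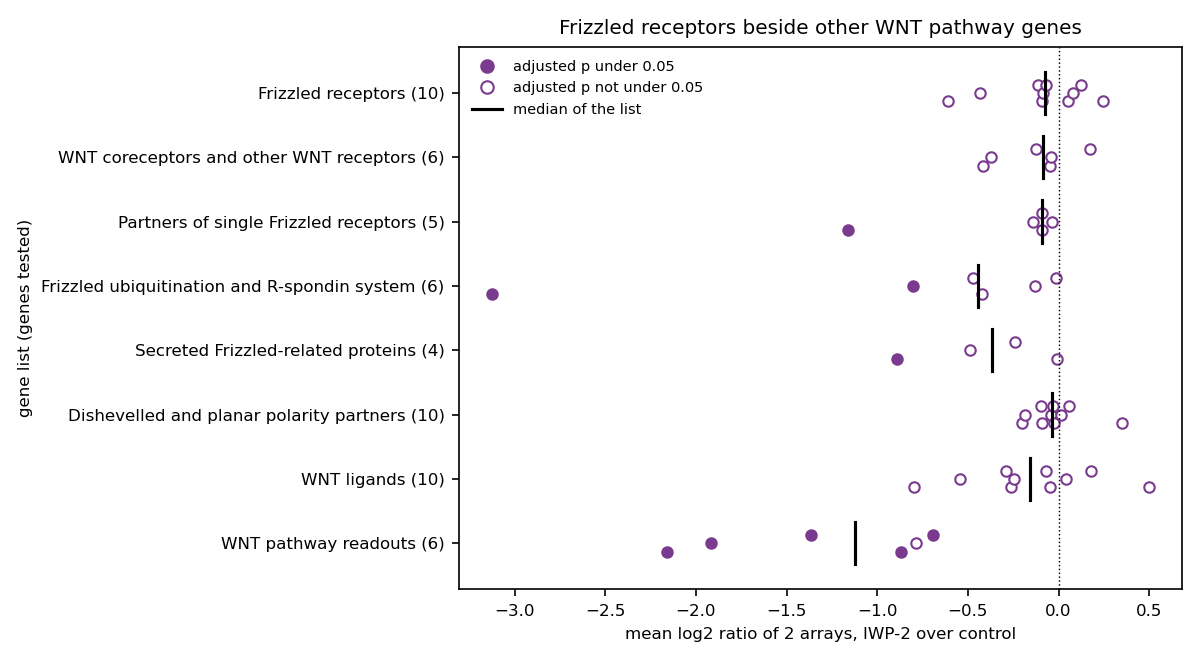
Mean log2 ratio of IWP-2 over control on 2 arrays (x axis) for each tested gene of the Frizzled list and the 7 other lists (y axis, with the number of genes tested), with filled circles for an adjusted p under 0.05 and a black line at the median of the list. The Frizzled list has no filled circle and a range of −0.61 to 0.24, and the readouts lie between −2.16 and −0.69.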

How the data were processed

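The deposited intensities are spot signals of 2 two-colour Agilent arrays, which the authors processed with Feature Extraction (12.2.0.7 per the file headers, 10.7.3.1 in the submitters' processing notes), with background subtraction and LOWESS dye normalization. The deposited log10 ratio of red over green was used only to check direction. It equalled that of the processed signals for 82.8% to 83.1% of spots (within 0.001) and was listed at 0 for the others. The series table, as deposited, gives every probe a score per array, a signed fold of IWP-2 over control with 1 decimal. Its direction was set by comparison with the arrays (r = 0.973 and 0.959 across probes), its column medians are 1, and how it was scaled is not given in the sources used here. The files use mm9. Of per-sample columns, 0 were of no known sample.

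Spots that carried an outlier flag were dropped, as were control spots. Signals were normalized by loess within each array (span 0.3), averaged over spots and floored at 15. A probe was tested if a share of 0.5 or more of its spots was well above background in 1 condition on both arrays and not both channels lay at the floor on an array. The log2 ratios of the 2 arrays were tested against 0 with limma 3.58.1 (R 4.3.3) and Benjamini-Hochberg adjustment at 0.05, with 1 residual degree of freedom. Control and IWP-2 pools that share a number and sex were hybridised together, and the ratio pairs them by construction. Both arrays were on 1 slide with 1 scan time. The number of arrays limits the precision, and nothing says how pups were allotted to pools.

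The last condition on the floor is a departure from the design written first. It was adopted after that fit and other settings had been run on the real arrays and their Frizzled values seen. The fit as first written called 0 of 27234 probes. Data simulated afterwards for IWP-2 over control had 200 changed probes. All were drawn from the probes that the reported fit tested on the real arrays. A change in a probe left out there could therefore not count as missed. The fit as first written recovered 0% of the 200. The reported one, on 23755 probes, recovered 87.0% of changes of 0.6 and 99.0% of changes of 1 (log2), and 1.06% of its calls were false. The setting with a mean signal above 100, on 18292 probes, tested only 157 of the 200 changed probes. Of the changes it tested, 97.3% (0.6) and 100% (1) were recovered, and 1.27% of its calls were false. Changed probes it did not test were not counted as missed, so these shares cannot be set against those of the reported fit. On the real arrays that setting calls *Fzd1*. In these simulations noise was independent between probes and arrays. Its size was a fraction of the difference between the real arrays, which is less than the noise expected of 1 array. Noise shared by both arrays was left out. The shares recovered are therefore likely too high for the real arrays, and the false calls do not cover shared noise. The members, the lists of pathway and marker genes and the choice to describe them were also made with earlier results of these data known. All members and probes are named. Other genes named are *Axin2*, list members that the fit called and up to 3 members a list with the brightest probes. *Aldh1a2*, *Znrf3*, *Slc34a1*, *Umod*, *Nphs1*, *Ror1* and *Ror2* are also named and were chosen after their values were seen.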

Additional observations from a re-analysis of the deposited data

Results flagged for a closer look

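At 4 probes the female array (replicate 1) and the male array (replicate 2) lay on opposite sides of 0. The log2 ratio of replicate 1 minus that of replicate 2 was 0.391 at the *Fzd5* probe with a ratio, 0.217 for *Fzd6*, 0.206 at the *Fzd7* probe nearer the transcript's start and 0.221 for *Fzd8*. At this *Fzd5* probe 1 channel lay at the floor of 15 on each array, which sets part of its value. None of the 4 differences was tested, since each sex has 1 array, and sex and dye orientation cannot be told apart.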

How the results depend on the processing

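The number of Frizzled probes called was 0 as reported, 1 (*Fzd1*) with a mean signal above 100 in 1 condition, 2 (*Fzd1* and *Fzd10*) with normexp background correction and 2 with 1 probe a gene and a mean signal above 100, and 0 in the other tested settings. Over the whole array, 104 probes were lower and 32 higher as reported. These counts became 46 and 11 with median centring, 250 and 208 with normexp and 40 and 6 with a floor of 1. They became 0 and 0 with no filter on dim probes (2750 at an unadjusted p under 0.05), and also 0 and 0 with floored probes included, the fit as first written (3032). With a mean signal above 100 there were 61 higher, and 56 with 1 probe a gene as well. Since the array fixes the pairs, the block was left out in a single-channel fit of the 4 pools with no replicate block, which called 7 lower and 0 higher probes and no Frizzled probe. It gave *Fzd1* an adjusted p of 0.530. No single-array setting gives a test, as 1 array leaves no residual degree of freedom. The settings with both filters joined, and with a mean signal above 100 for the lists, were chosen after seeing the data. The setting with floored probes included was the fit as first written, and the reported fit replaced it after the data were seen. The causes of these changes were not tested.

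Of the mean ratios, the *Fzd7* probe nearer the transcript's start turned to 0.0034 with median centring. With single arrays, the *Fzd5* probe ran from −0.073 to 0.32, *Fzd6* from −0.029 to 0.19, this *Fzd7* probe from −0.14 to 0.067 and *Fzd8* from −0.060 to 0.16. Settings that change only the probes tested or the variance leave a ratio as it was, so no sign could turn there. *Fzd1*, *Fzd2*, *Fzd3*, *Fzd4*, *Fzd9*, *Fzd10* and the other *Fzd7* probe kept their sign in every setting, with 1 exception. The series table lists the brighter *Fzd2* probe at a log2 ratio of 0. That table's values have 1 decimal and were not tested.

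Of the genes past the 1.5-fold filter, 51 were lower and 10 higher. With a fold of 2 there were 19 and 0, and where the control only had to be well above background there were 89 and 24. On single arrays, the lower genes ran from 78 to 160, the higher ones from 25 to 111 and the Frizzled genes from 0 to 1.

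In the lists, normexp gave 2 called secreted Frizzled-related genes, 1 ligand lower and 1 higher, and medians of −0.137 for the ligands and −1.04 for the readouts. A mean signal above 100 gave 0 called partner genes, 2 secreted Frizzled-related genes and 1 lower ligand. Its medians were −0.639 for the list of ubiquitination and R-spondin genes, −0.147 for the ligands and −1.08 for the readouts. Signals near the floor, as for *Fzd5*, limit what these arrays show.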
